A study of Mus musculus with 2 samples.

Results

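The genes described here defend cells against oxidants, handle iron and set the threshold for ferroptosis, the iron-dependent death by lipid peroxidation. They were chosen by name, as 40 symbols of the antioxidant, iron and ferroptosis pathways, and all 40 were in the table, each in 1 row of its 54532 genes. They were measured by poly(A) RNA sequencing in cells of 4T1, a line from a BALB/c mouse mammary carcinoma: 1 sample with Cd28 knocked out and 1 wild-type sample, and no other allele or agent is given. CD28 is the receptor through which T cells take a second, costimulatory signal. Whether the knockout line is 1 clone is not stated. Of the 2 libraries, only the knockout could be matched to a column of the table by its label, and the wild-type sample was not analysed here. Every value is therefore a level in the 1 knockout library, and none says what losing Cd28 does.

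NRF2, encoded by Nfe2l2, is the transcription factor that drives most enzymes of this defence, and KEAP1 marks it for destruction until oxidants or electrophiles block that step. Its targets make and reduce glutathione and thioredoxin, the thiols that peroxidases use to remove hydrogen peroxide and lipid peroxides. Free ferrous iron turns peroxides into radicals, so cells store iron in ferritin and match uptake to need through iron regulatory proteins. In ferroptosis, polyunsaturated lipids made available by ACSL4 are peroxidised once GPX4, the lipid peroxidase, can no longer keep up.

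The library held 15565990 counted reads, and Cd28 itself had 8 of them, or 0.514 CPM (reads scaled to the library total; exact Poisson 95% interval 0.222 to 1.01), a count over the whole gene that cannot check the label without a wild-type level. Epithelial markers were present, with 5 of 7 at 10 reads or more and a summed level of 3617 TPM, which are reads per gene length scaled to the library. Cldn3 had 1 read and Cldn7 had 0. Of 7 leukocyte and macrophage markers only Cd68, a lysosomal protein gene, was detected, and Ptprc and Adgre1 had 0 reads. Of 7 erythroid markers only Alas2 was detected, with 30 reads, and the 4 globin genes listed had 0. Of 4 hepatocyte and 5 fibroblast markers, 0 and 1 were detected.

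Sequence elements found in some of these genes are shown first. The iron regulatory proteins, made by Aco1 and Ireb2, bind the iron-responsive element, a hairpin with a CAGTGN loop (N, any base). Sites were searched in 1 GENCODE vM21 transcript per gene on its own strand, as a C, 5 bases, the loop and 5 bases that pair with the first 5. Within the 5′ untranslated part, such a site was found in 3 of the 40 genes (Fth1, Ftl1 and Slc40a1), against 0.139% of detected protein-coding genes. In the 3′ untranslated part, Tfrc held 4 sites and no other protein-coding gene held more than 1; 0.671% of detected genes held at least 1. The loop is in capitals in the sites below, written as DNA in the direction of the mRNA (GRCm38), with Fth1 at chr19:9982738-9982754 (plus strand), Ftl1 at chr7:45459785-45459801 (minus strand) and the outermost Tfrc sites at chr16:32631225-32631241 and chr16:32631716-32631732 (plus strand).
Fth1 5′ site: cttcaaCAGTGCttgaa
Ftl1 5′ site: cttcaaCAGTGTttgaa
Tfrc 3′ site 1: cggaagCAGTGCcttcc
Tfrc 3′ site 2: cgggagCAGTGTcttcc
Tfrc 3′ site 3: cggagaCAGTGAtctcc
Tfrc 3′ site 4: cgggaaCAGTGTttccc
The stem of the ferritin sites is the same in both chains, and the stems of Tfrc differ from it and from each other. A match is a description of the reference sequence and no measure of binding.

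Selenocysteine, the reactive residue of several peroxidases and thioredoxin reductases, is encoded by an in-frame UGA that is a stop codon elsewhere. An in-frame TGA inside the coding part was found in 4 of the 40 genes, Gpx1, Gpx4, Txnrd1 and Txnrd2. Among 21336 protein-coding genes with a complete coding part, 24 held such a codon. Genes with another internal stop and those of the mitochondrial genome were not called. The codon, in capitals, was number 47 in Gpx1 and 129 in the longest coding form of Gpx4, and the last codon but 1 before the stop in each reductase (number 612 of 613 residues in Txnrd1 and 526 of 527 in Txnrd2). The stretches lie at chr9:108339439-108339465, chr10:80054725-80054751, chr10:82896025-82896051 and chr16:18477760-18477786, all on the plus strand.
Gpx1: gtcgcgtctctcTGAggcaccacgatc
Gpx4: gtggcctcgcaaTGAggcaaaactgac
Txnrd1: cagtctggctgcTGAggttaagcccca
Txnrd2: gtgactggttgcTGAggctaagtcacc
In each of the 4, the codon after TGA began with GG, a glycine codon.

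NRF2 with small MAF proteins binds the antioxidant response element, whose core is TGACNNNGC. RefSeq promoter windows of 300 bases (250 before and 50 after each start, GRCm38.p6) matched 33 of the 40 symbols; Gsr, Gclc, Gsta4, Slc40a1, Hmox1, Slc11a2 and Prdx6 were not matched. The core, on either strand, was in a window of 8 of the 33 genes (24.2%), against 17.0% of the 9075 detected protein-coding genes with a window and 14.0% of all 27025 genes with one. Counted by window, it was 17.8% of the members' 45 windows, against 12.4% of all 32851. The 8 were Gclm, Mgst1, Ncoa4, Nfe2l2, Prdx1, Sod1, Srxn1 and Txnrd1. The sites in 4 genes of glutathione, peroxiredoxin and thioredoxin function are shown, to let the flanks be compared, with the core in capitals, all as its reverse complement GCNNNGTCA. They lie at chr4:116685454-116685486, chr3:122245411-122245443, chr10:82859102-82859134 and chr2:152105540-152105572, on the plus strand.
Prdx1: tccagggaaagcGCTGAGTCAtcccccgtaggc
Gclm: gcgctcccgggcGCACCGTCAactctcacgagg
Txnrd1: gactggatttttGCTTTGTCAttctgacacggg
Srxn1: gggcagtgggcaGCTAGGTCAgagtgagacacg
The flanks of the 4 cores differ. A match is a description, and sequence outside these windows was not searched.

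All 40 genes were detected at 10 reads or more, with 208 to 36463 reads each and a median of 1419, against 52.2% of the 22046 protein-coding genes at that minimum. Levels between genes are compared per length, as TPM. Of the 40, 32 lay above 24.4 TPM, the median among the 11497 detected protein-coding genes. Undetected genes are left out of this median, so a smaller share of all 22046 protein-coding genes than of the detected ones lies above it. Counts above it in the other lists below are out of all genes listed, detected or not. At percentile 90 or higher of the detected genes, per deposited length, were 17 members (42.5%), against 9.99% of the genes ranked. How many members these are, and which, depends on the length. By reads alone Gstp1, Gsta4, Prdx3, Prdx4, Prdx5, Nqo1 (71.4) and Gsr (82.2) fell below 90, and only Acsl4 (92) joined. With the length of 1 annotated transcript Nqo1 (87) and Gsr (84.4) fell below 90 and none joined. In bulk RNA, fewer cells of a type and less RNA per cell cannot be told apart. The median of the 40 genes was 76.6 TPM and the median of their percentiles 83.1. Together they took 0.869% of the library's reads. The list holds well-known abundant genes, so this describes the list and is no test of it. Counting error was small, with a median half-width of 5.24% of the level (1.03% to 13.8%); intervals cover counting error only. The choice of gene length moved percentiles more than counting error did for most genes, and the values are set out by setting further on.

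**Figure D1:**
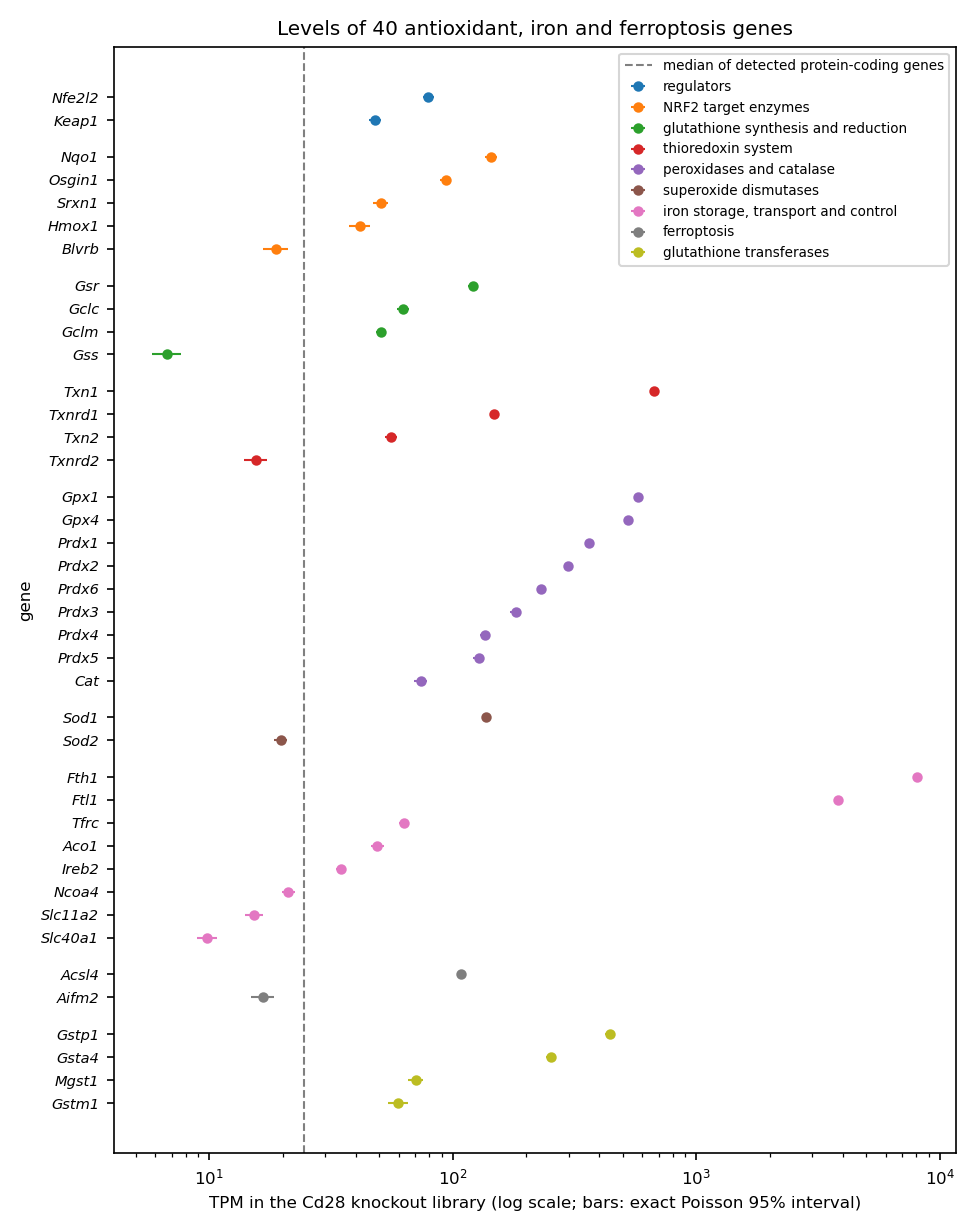
Level of each of the 40 genes in the Cd28 knockout library in TPM (log axis), grouped by role, with exact Poisson 95% intervals as bars; the dashed line is the median of detected protein-coding genes, 24.4 TPM. Fth1 (8028 TPM) and Ftl1 (3826 TPM) stand above all others, and 8 genes lie left of the line, with Gss lowest at 6.70 TPM.

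Nfe2l2 was expressed above its inhibitor Keap1. Nfe2l2 (ENSMUSG00000015839, chromosome 2, 75675513 to 75704641) had 1582 reads, or 79.5 TPM (75.6 to 83.5), and Keap1 (ENSMUSG00000003308, chromosome 9) had 1176 reads, or 47.8 TPM (45.1 to 50.6). The ratio of the 2 levels was 1.66 (Clopper-Pearson 95% interval 1.54 to 1.80), and 1.96 when the length of 1 annotated transcript replaced the deposited gene length. Of the Keap1 exon length, 10.9% lies under an antisense gene, Gm16754, which had 58 reads. Among 13 other genes that control NRF2, all were detected and 10 lay above the median. Sqstm1, the autophagy receptor p62 that sequesters KEAP1, had 1143 TPM (1127 to 1159), more than any member but the ferritin chains. Nfe2l1, the related factor NRF1, had 229 TPM (224 to 235), and its ratio to Nfe2l2 was 2.88 (2.73 to 3.05), or 4.35 with transcript length. Mafg, a small MAF partner, was 2.06 times Nfe2l2 (1.94 to 2.18).

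NRF2 target enzymes spanned the middle to the upper range. Nqo1, the quinone reductase, had 1169 reads, or 144 TPM (135 to 152), at percentile 92.9. Osgin1, an oxidative stress-induced growth inhibitor, had 93.4 TPM (88.4 to 98.6) from 1310 reads. Srxn1, sulfiredoxin, which restores over-oxidised peroxiredoxins, had 50.5 TPM (46.9 to 54.3) from 747 reads. Hmox1 and Blvrb, of haem breakdown, were lower per deposited length. Hmox1, the inducible haem oxygenase, had 381 reads, or 41.5 TPM (37.4 to 45.9), and Blvrb, biliverdin reductase B, had 273 reads, or 18.7 TPM (16.6 to 21.1). Per deposited length, Hmox1 and the constitutive Hmox2 did not differ beyond counting error, with a ratio of 1.01 (0.883 to 1.16). In plain reads Hmox2 was higher, with 476 reads (27.9 to 33.5 CPM) against 22.1 to 27.1 CPM for Hmox1. Hmox1 over Blvrb was 2.22 with the deposited length, but 0.846 (0.722 to 0.992) with transcript length, so their order depends on the gene model. With transcript length Blvrb (percentile 62) also lay above Srxn1 (59.6).

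In glutathione metabolism the last enzyme of synthesis was the lowest of all 40 genes. Gclc and Gclm, the catalytic and modifier subunits of glutamate-cysteine ligase, had 1230 and 1674 reads, which is 62.3 TPM (58.8 to 65.8) and 50.7 TPM (48.3 to 53.2). Gss, glutathione synthetase, had 208 reads, or 6.70 TPM (5.82 to 7.68), at percentile 19.8. Gsr, glutathione reductase, had 1749 reads, or 121 TPM (115 to 127), 18.1 times Gss (15.6 to 21). The gap was 6.18 times with transcript length, since the deposited length of Gss is 5915 bases and that of its transcript 1963. Genes on the other strand cover 15.4% of the Gss exons, and Acss2, 1 of them, had 241 reads. Gclm over Gclc was 0.815 (0.756 to 0.878) per length, although Gclm had more reads. The cystine importer feeds this pathway: its heavy chain Slc3a2, which also serves other amino acid transporters, had 209 TPM (202 to 215), 12.8 times (12 to 13.7) the light chain Slc7a11 per deposited length. That ratio was 10.7 with transcript length and 3.25 in plain reads. In that list of cystine uptake, glutathione turnover and NADPH supply, 16 of 17 genes were detected and 11 lay above the median, with Tkt, transketolase, second at 167 TPM.

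Cytosolic forms of the thioredoxin and superoxide enzymes exceeded the mitochondrial forms. Txn1, cytosolic thioredoxin, had 3701 reads, or 671 TPM (649.9 to 693), at percentile 98.8. Txn2, its mitochondrial counterpart, had 1234 reads, or 55.9 TPM (52.8 to 59.1), a ratio of 12 (11.3 to 12.8) per deposited length and 5.85 per transcript length. The reductases ran the same way, with 5493 reads for Txnrd1, or 148 TPM (144 to 152), and 358 for mitochondrial Txnrd2, or 15.5 TPM (13.9 to 17.2). Sod1, the cytosolic copper-zinc enzyme, had 2855 reads, or 137 TPM (132 to 142). Sod2, the mitochondrial manganese enzyme, had 1034 reads, or 19.7 TPM (18.5 to 20.9), below the median. Sod1 over Sod2 was 6.96 (6.48 to 7.48) per deposited length and 25.2 per transcript length, because the deposited Sod1 length is 3970 bases and its transcript 641. Each of the 3 pairs kept the cytosolic form higher under every length setting run.

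The peroxidases were the most evenly high group, with all 9 above the median and 8 at percentile 90 or higher per deposited length. By reads alone Prdx3, Prdx4 and Prdx5 were below 90, at percentiles 76.5, 78.2 and 77. Gpx1, the cytosolic glutathione peroxidase, had 4374 reads, or 579 TPM (562 to 596). Gpx4, the enzyme that reduces lipid peroxides inside membranes, had 4723 reads, or 522 TPM (508 to 537). Their order depended on the length, as Gpx1 over Gpx4 was 1.11 (1.06 to 1.15) per deposited length and 0.860 (0.825 to 0.896) per transcript length. Stretches of 100 bases found in no other annotated gene made up 51.6% of Gpx4 and 100% of Gpx1. The peroxiredoxins, which reduce peroxides with thioredoxin or, for PRDX6, with glutathione, came next. Prdx1 had 5801 reads, or 363 TPM (354 to 373), and Prdx2 had 4766 reads, or 298 TPM (289.5 to 307), both cytosolic. Prdx1 over Prdx2 was 1.22 (1.17 to 1.27) per deposited length and turned to 0.796 per transcript length; exons of Junb and Rnaseh2a on the other strand, with 4207 and 943 reads, cover part of Prdx2 (11.5% of its exon length under other genes).

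Prdx6, which also has phospholipase activity, had 5800 reads, or 230.2 TPM (224 to 236). Prdx3, the mitochondrial form, had 1403 reads, or 181 TPM (172 to 191), and Prdx1 was 2.01 times as high (1.89 to 2.13), or 4.13 times in plain reads. Prdx4, of the endoplasmic reticulum, had 1500 reads, or 136 TPM (129 to 143). Prdx5, found in several compartments, had 1435 reads, or 128 TPM (121 to 135), and 19.1% of its exon length lies under Trmt112 on the other strand. Per deposited length, Prdx4 and Prdx5 did not differ beyond counting error, and neither did Prdx4 and Sod1. With transcript length their percentiles were 94.8 for Prdx4, 96.1 for Prdx5 and 98.5 for Sod1. Cat, the peroxisomal catalase, was the lowest of the group with 1011 reads, or 73.8 TPM (69.3 to 78.5). Of other thioredoxin, peroxidase and superoxide genes, 13 of 20 were detected, against 52.2% of all protein-coding genes. Of the 20, 8 lay above the median of detected genes. Cyba, the shared p22phox subunit of NADPH oxidases, had 221 TPM and Gpx8, a peroxidase of the endoplasmic reticulum, had 138. Of the superoxide- and peroxide-producing oxidases listed, Nox4 had 10 reads, Duox1 had 6, Nox1 had 2, and Cybb and Duox2 had 0. At the limit of 3 reads, a count of 0 allows 0.193 CPM. Gpx2, the gastrointestinal form, also had 0.

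**Figure D2:**
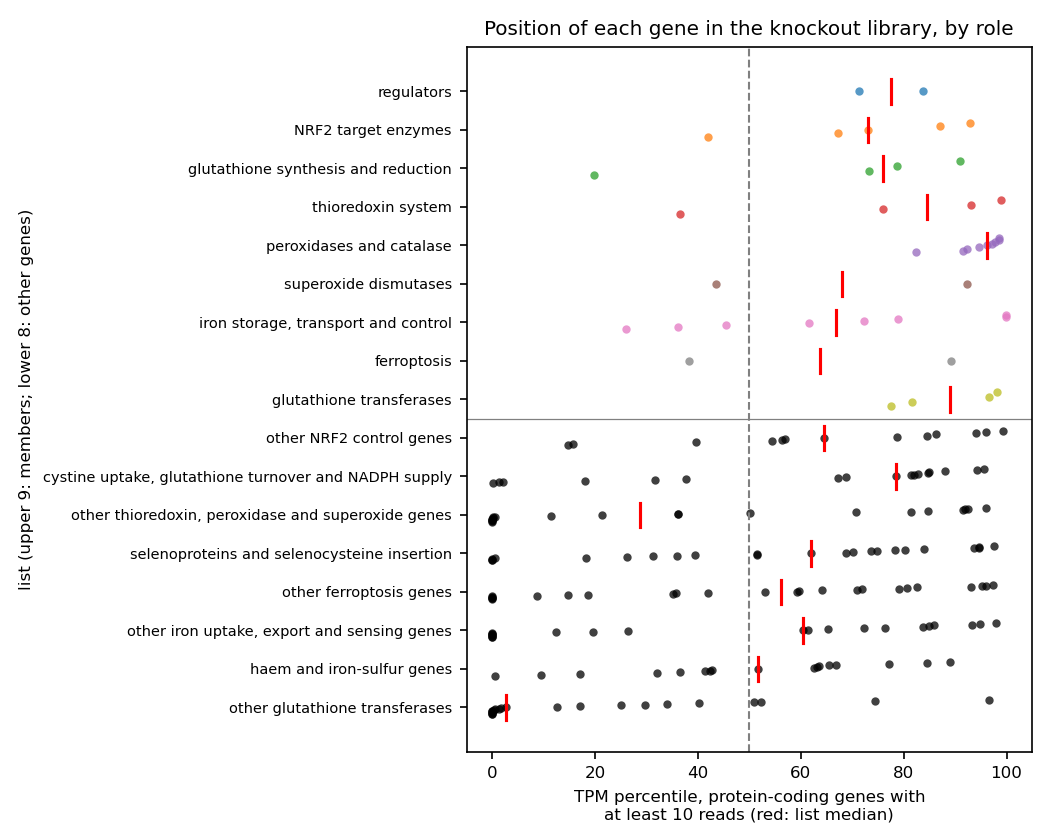
TPM percentile of each gene among protein-coding genes with at least 10 reads, 1 point per gene, for the 9 role groups of the 40 genes (coloured, above the line) and 8 lists of other genes of the same pathways (black, below it); red bars are list medians and the dashed line marks percentile 50. The peroxidases and catalase lie furthest right as a group (median 96.1), and the other glutathione transferases furthest left (median 2.63).

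The 2 ferritin chains had the highest levels of the list under each length setting run, but their order depended on the length. Fth1, the heavy chain with ferroxidase activity (ENSMUSG00000024661, chromosome 19, 9982703 to 9985092), had 36463 reads, or 8028 TPM (7945 to 8110). Per deposited length it was number 5 of all protein-coding genes by TPM. Ftl1, the light chain (ENSMUSG00000050708, chromosome 7, 45457944 to 45459884), had 26891 reads, or 3826 TPM (3780.5 to 3872), and was number 17. Together they made up 46.8% of the reads of the 40 genes and, per deposited length, 68.6% of their TPM. The remaining 38 spanned a 100.1-fold range. Fth1 over Ftl1 was 2.10 (2.07 to 2.13) per deposited length and 1.41 per transcript length. The deposited Fth1 length of 866 bases is shorter than its transcript (929) and than its merged exons in GENCODE vM21 (3469), whereas that of Ftl1, 1340 bases, is the merged length. With merged length Fth1 had 2017 TPM, at percentile 99.6, and the ratio turned to 0.524 (0.516 to 0.532). The rank of Fth1 and the share of TPM given above hold for its deposited length only. Stretches of 100 bases found in no other annotated gene made up 99.04% of Fth1 and 21.4% of Ftl1, whose count is thus uncertain. Of the Ftl1 exon length, 34.6% lies under Gm10252 and Gm22133, which had 12 and 0 reads.

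The uptake genes Tfrc and Slc11a2 lay above the iron exporter Slc40a1 per length. In plain reads the intervals of Slc11a2 (29.9 to 35.7 CPM) and Slc40a1 (27 to 32.5 CPM) overlapped. Of other uptake genes, Slc39a14 had 1859 reads, or 33.6 TPM, while Slc39a8 and Tfr2 had 1 and 0 reads. Tfrc, the transferrin receptor, had 2040 reads, or 62.9 TPM (60.2 to 65.7), and Slc11a2, the ferrous iron transporter DMT1, had 509 reads, or 15.3 TPM (13.97 to 16.7). Slc40a1, which encodes ferroportin, the only known mammalian iron exporter, had 462 reads, or 9.79 TPM (8.91 to 10.7), at percentile 26. Tfrc over Slc40a1 was 6.43 (5.81 to 7.12) per deposited length and 3.04 per transcript length. Ncoa4, the receptor that takes ferritin to autophagy, had 1035 reads, or 21.1 TPM (19.8 to 22.4); 60.2% of its stretches are its own. The iron sensors were moderate: Aco1, the cytosolic aconitase that binds iron-responsive elements when it lacks its iron-sulfur cluster, had 1157 reads, or 49.1 TPM (46.3 to 52). Ireb2, the sensor degraded in iron-replete cells, had 1721 reads, or 34.6 TPM (33 to 36.3). Their ratio of 1.42 (1.31 to 1.53) shrank to 1.01 (0.939 to 1.09) with transcript length. Per deposited length, genes with a hairpin in the 5′ part thus included the 2 highest members and 1 of the 2 lowest, at 8028, 3826 and 9.79 TPM. By reads alone Slc40a1 was at percentile 43, above Gss (24.9) and Blvrb (29.8), among others.

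Among 21 other genes of iron uptake, export and sensing, 14 were detected, 11 lay above the median and 5 had 0 reads. Pcbp1 and Pcbp2, which can deliver iron to ferritin, had 389.7 TPM (377 to 402) and 185 TPM (180 to 190.2). Of the 17 haem and iron-sulfur genes, 16 were detected and 9 lay above the median. Alad, an enzyme of haem synthesis, had 82.2 TPM (76.7 to 88.1).

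Per deposited length, the genes named for ferroptosis fell on either side of the median. With transcript length both lay above it, Acsl4 at percentile 81.8 and Aifm2 at 60.1. Acsl4, which loads polyunsaturated fatty acids onto coenzyme A for membrane lipids, had 3055 reads, or 108 TPM (104 to 112), at percentile 89.3. It was 4.01 times (3.68 to 4.38) its relative Acsl3. Aifm2, which encodes FSP1, a reductase of coenzyme Q that protects membranes beside GPX4, had 358 reads, or 16.6 TPM (14.9 to 18.4), at percentile 38.3. Gpx4 over Aifm2 was 31.5 (28.3 to 35.2) per deposited length and 17.6 per transcript length, with Gpx4 higher in each. Of 24 other ferroptosis genes 19 were detected and 13 lay above the median. Scd2, a desaturase that makes monounsaturated fatty acids, had 326 TPM (319 to 333), and Cyb5r1, an oxidoreductase reported to feed electrons to lipid peroxidation, had 229 TPM (223 to 235). Among the lipoxygenases Aloxe3 had 209 reads, Alox5 had 2, Alox15 had 1, and Alox12 and Alox12b had 0.

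The 4 glutathione transferases of the list were all above the median per length. Ranked by reads alone, Gstm1 fell below it, at percentile 42.9. Gstp1, the pi class enzyme, had 1764 reads, or 444 TPM (424 to 466), and Gsta4, which conjugates the lipid peroxidation product 4-hydroxynonenal, had 1686 reads, or 254 TPM (242 to 266). Mgst1, a membrane-bound transferase with peroxidase activity, had 745 reads, or 70.6 TPM (65.6 to 75.8), and Gstm1, of the mu class, had 461 reads, or 59.7 TPM (54.3 to 65.4). Of 21 further transferase genes, 10 were detected, against 52.2% of all protein-coding genes, and 4 lay above the median. Gsto1, of the omega class, had 254 TPM (244 to 264), level with Gsta4 within counting error per deposited length. It had more reads, 2623 against 1686. Gstm2 had 52.8 TPM (48.1 to 57.8). The deposited Gstp1 length of 757 bases is also below its merged exons (1548), with which it had 219 TPM. Of the Gstp1 stretches 47.2% are its own, and its neighbours Gstp2 and Gstp3 had 3 and 0 reads. For selenoproteins and their synthesis, 19 of 23 genes were detected and 14 lay above the median, led by Selenow at 347 TPM (329 to 366) and Selenoh at 177 TPM (167 to 188).

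Ordered by TPM per deposited length, 21 of the 39 neighbouring pairs of members had overlapping intervals. The first 11 genes, from Fth1 to Prdx3, were each separated from the next beyond counting error. The order within Fth1 and Ftl1, Gpx1 and Gpx4, and Prdx1 and Prdx2 nevertheless turned with another length. From Nfe2l2, number 20, to Hmox1, number 31, every gene overlapped the next in order, and so did those from Ncoa4 to Slc11a2.

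**Figure D3:**
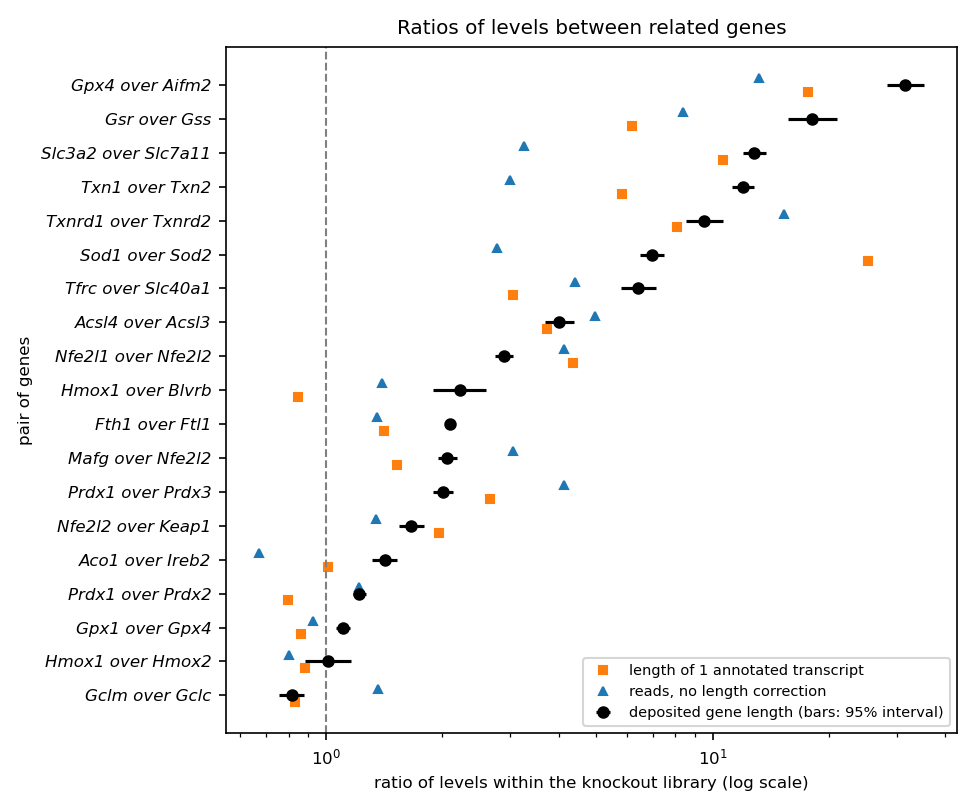
Ratio of levels for 19 pairs of related genes within the knockout library (log axis), per deposited gene length with Clopper-Pearson 95% intervals (black), per length of 1 annotated transcript (orange) and as plain reads (blue); the dashed line marks equal levels. Gpx4 over Aifm2 is highest at 31.5, and several pairs close to 1, such as Gpx1 over Gpx4 (1.11, 0.860 and 0.926), change sides with the length used.

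The deposited length is the merged length of all annotated exons, equal to that in GENCODE vM21 for 38 of the 40 genes (those of Fth1 and Gstp1 are shorter). It was 0.922 to 6.19 times the length of the transcript with the longest coding part. With transcript length, 20 genes moved up in percentile and 20 moved down, by 21.8 points for Aifm2 at most upwards, and Srxn1 fell by 13.5 points. Aifm2, Blvrb and Ncoa4 then lay above the median, at percentiles 60.1, 62 and 58.2, against 38.3, 41.9 and 45.5 with the deposited length. Ranked by reads without length, Gstm1 and Hmox1 fell below the median, at percentiles 42.9 and 37.3, against 77.5 and 67.2 per deposited length. Ncoa4 and Sod2 then lay above it, at 67.5 and 67.4, against 45.5 and 43.5. Gstm1 moved the most of the 40 under that setting, by -34.6 points.

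**Figure D4:**
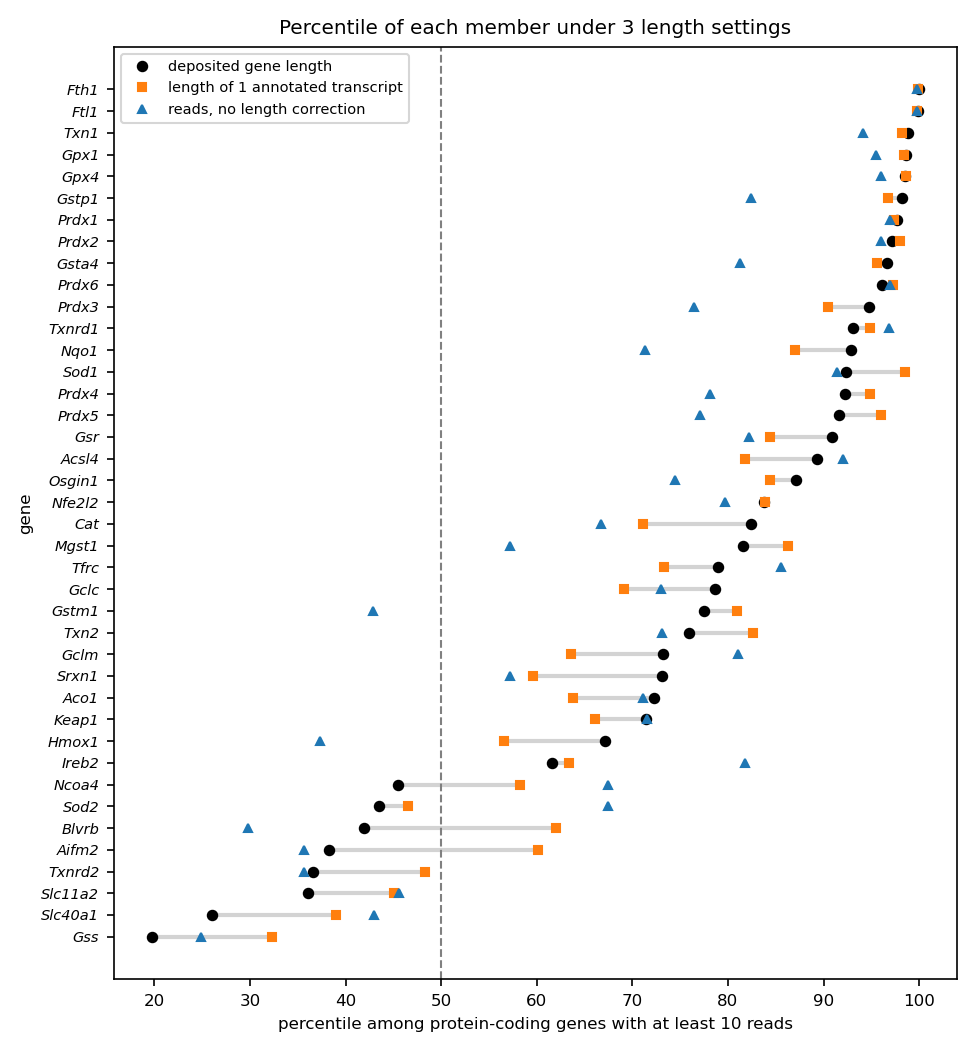
Percentile of each of the 40 genes among protein-coding genes with at least 10 reads, by deposited gene length (black), by the length of 1 annotated transcript (orange) and by reads alone (blue). The 10 genes highest by deposited length stay above percentile 95 with transcript length, where Aifm2 (38.3 and 60.1) moves the most; by reads alone Gstm1 does (77.5 and 42.9).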

How the data were processed

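Libraries were made from bead-selected poly(A) RNA with random hexamer priming, per the labels' protocols. The authors deposited raw read counts for each gene and its length in bases. The submitters' processing notes name build mm10 and the tools CASAVA, HISAT2 2.0.5 and featureCounts 1.5.0-p3. Strand setting, annotation release and the handling of multi-mapping reads: not given in the sources used here. The column headed KO matches the title of the knockout sample. The table has 1 other column of per-sample values, whose heading matches no label; it was not used, and the planned ratio of knockout over wild type, with its alternatives, was not made. CPM and TPM were computed from the deposited counts and lengths, with exact Poisson 95% intervals; reads are not independent molecules, so intervals cover counting error only. A count of 0 allows 3 reads. Percentiles rank a TPM among protein-coding genes with 10 reads or more. Ratios of 2 genes use Clopper-Pearson intervals of their reads. The transcript of each gene was that with the longest coding part in GENCODE vM21. Related pseudogenes were those named for a member or sharing over 50% of their 50-base stretches with it. No test between groups was possible. All members are named, with the 2 highest genes by TPM of each other list, of which 1 is not reported here; the gene pairs, and other genes named, were chosen after their values were seen. The members and lists were chosen with earlier results of these data known. Computations were checked on simulated data. Python 3.11.15, numpy 2.4.6, pandas 2.3.3, scipy 1.17.1 and matplotlib 3.10.9 were used.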

Additional observations from a re-analysis of the deposited data

Results flagged for a closer look

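Pseudogenes that resemble 4 of the members, which enter none of the levels above, had more than 3 reads, the limit for a count of 0; up to 2 are given per member, those with most reads. Gpx4-ps2, on chromosome 10, had 719 reads, which is 15.2% of the count of Gpx4, and shared 78.2% of its 50-base stretches with it. Ftl1-ps1, listed in the table as protein-coding, had 656 reads, and Gm15590 had 67, while Ftl1 had 26891. Gstp-ps had 273 reads, or 15.5% of the Gstp1 count, and shared 60.5% of its stretches with Gstp1. Gm6768 had 197 reads, or 19% of the Ncoa4 count, and shared 94.5% of its stretches with Ncoa4. Whether these reads came from the pseudogenes or from the mRNAs they resemble was not tested.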

How the results depend on the processing

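All 40 genes were also detected at 1 and at 100 reads. The 32 above the median became 32 without length correction (Gstm1 and Hmox1 left, Ncoa4 and Sod2 joined), 35 with transcript length, 35 when ranked among genes with at least 1 read, and 26 of the 32 members with at least 90% own stretches and at most 10% of exon length under another gene. The median percentile of 83.1 was 76.8 without length correction, 83.3 with transcript length, 85.9 among genes with at least 1 read, and 81.96 in those 32 members. Single percentiles left their counting intervals for 39 of 40 genes with transcript length and for 36 without length correction. Adding pseudogene reads moved 3 of 8 genes, Ncoa4 to percentile 51, Gpx4 to 98.7 and Gstp1 to 98.4. Of 39 recomputed pair ratios, a choice made after the data were seen, 9 changed sides of 1: with merged exon length Fth1 over Ftl1 (0.524), with transcript length Gpx1 over Gpx4 (0.860), Prdx1 over Prdx2 (0.796), Hmox1 over Hmox2 (0.883) and Hmox1 over Blvrb (0.846), and without length correction Gclm over Gclc (1.36), Gpx1 over Gpx4 (0.926), Aco1 over Ireb2 (0.672) and Hmox1 over Hmox2 (0.800). No paired analysis was possible because only the knockout sample had a matched column. For that reason the planned ratio of knockout over wild type, its median-ratio scaling and its fit with no read minimum were not run. With no replicate, variation from culture to culture was not measured, and depth bounds the counting error only.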

Other observations

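Several relatives of the members had next to no reads, and were chosen for mention after their values were seen. Of the mu class transferases, Gstm3 had 0 reads, Gstm4 and Gstm7 had 1 each and Gstm6 had 6. Gstm5 had 62 reads, or 9.25 TPM, beside 461 reads for Gstm1 and 465 for Gstm2. Stretches found in no other gene made up 90.9% of Gstm1 and were not computed for the others. Gstk1, the mitochondrial kappa class transferase, had 1 read. Mboat2, an acyltransferase reported to limit ferroptosis, had 0 reads and its relative Mboat1 had 622. Trf, which encodes transferrin, had 0 reads, whereas Cp, the ferroxidase ceruloplasmin, had 2859 reads, or 56.98 TPM. Selenop, the selenium carrier of plasma, had 5 reads. Epas1, the hypoxia factor HIF2α whose mRNA carries an iron-responsive element in humans, had 3 reads. Dio2, the deiodinase that activates thyroid hormone, had 524 reads, or 17.2 TPM, while Dio1 and Dio3 had 0.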
